A study of Mus musculus with 24 samples.

Results

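The genes described here are 35 mouse genes, 34 of glycolysis and of pyruvate entry into mitochondria, and Hif1a, which encodes a transcription factor subunit of the hypoxia response. They were chosen by name and by their step in the pathway, and their rows were found in 6 expression tables by the Ensembl identifier that maps to each symbol. Each table lists 55385 Ensembl genes, and the 35 members were all present and above the filter on low values in all 6 tables. Aldoa is listed under 2 identifiers. The row described below is ENSMUSG00000030695, and the second row lay between 0.541 and 1.92 FPKM, so it is not described further.

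The tables hold total RNA-seq of naive mouse embryonic stem cells (ESCs) kept in 2i/LIF, a medium with inhibitors of MEK and GSK3 and the cytokine LIF, as 24 libraries in 12 groups of 2. ESCs were stained with TMRM, whose signal follows the potential across the inner mitochondrial membrane (ΔΨm), and sorted into the 5% with the highest signal (high ΔΨm) and the 5% with the lowest (low ΔΨm), and the latter are the spontaneously quiescent ESCs (qESCs) of the study. ESCs transfected at 40 nM with an siRNA pool against Mat2a, whose enzyme makes the methyl donor S-adenosylmethionine (SAM), were set against a non-targeting pool at 40 nM (siCtr). Induced qESCs were made with etomoxir, an inhibitor of fatty acid oxidation, at 100 µM for 4 days against water, or with a small-molecule inhibitor of MYC (MYCi) at 64 µM for 3 days against DMSO. ESC lines without Eed, a core subunit of the Polycomb complex PRC2 that places H3K27me3 (Eed-/-), were set against heterozygous lines (Eed fl/-). Both genotypes were derived from 129/S1 embryos on feeder cells and carry at least 1 Eed allele deleted by a Cre active in the male germ line. Per the methods, these lines were derived in 2i/LIF medium with serum replacement and fetal bovine serum, while other naive ESCs were kept in N2B27 medium. How many lines were made per genotype was not given in the sources used here, so differences between genotypes and between lines cannot be told apart. Sorted low-ΔΨm qESCs were also given SAM at 25 or 50 µM for 24 hours, and since cells without added SAM are in another table, only the doses were compared. The ESC line behind the other libraries is not named in the labels. Tables were normalized separately, so each difference below lies within 1 table.

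Glycolysis turns a molecule of glucose into pyruvate in the cytosol, with hexokinase, phosphofructokinase and pyruvate kinase at its irreversible steps. Pyruvate is then either reduced to lactate and exported with a proton, or carried into mitochondria and turned into acetyl-CoA by the pyruvate dehydrogenase complex, which the PDK kinases switch off by phosphorylation. Naive ESCs use both glycolysis and mitochondrial respiration. MYC, which binds the E-box CACGTG, and the hypoxia-inducible factors, which bind the core ACGTG or GCGTG, are textbook activators of many of these genes.

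Those letters were looked for in the 250 bases before each RefSeq start site (GRCm38.p6), on both strands, counting ACGTG only where it is not part of CACGTG. Promoters of 34 members were listed, 51 in all since several genes have more than 1, and Slc2a3 is named only. CACGTG was present in 7 of the 51 (13.7%) and in 6.02% of all 32851 promoters of that length. ACGTG was present in 15 (29.4%, against 11.4% of all) and GCGTG in 28 (54.9%, against 28.2%). Windows of a gene can overlap, as for Pfkm, Aldoa and Eno1, so some sites were counted in more than 1 window. No count per gene was made. The windows of Gpi1, Tpi1, Eno2 and Dlat had none of these letters. Each of these letter strings contains CG, and the promoters compared were not matched for CG content or for expression level. What the higher shares among members rest on was not tested. A match is a description of the sequence, not a measured binding site. Stretches are shown for 4 members that results below turn on. Ldha and Slc16a3 were low with siMat2a, etomoxir and MYCi, Pfkfb2 was high with them, and Pgk1 stands in the middle of the pathway. The stretches are written 5′ to 3′ on the gene's strand, with matches in capitals. They lie at chr7:46845644-46845789 (plus strand) for Ldha, chrX:106186935-106186988 (plus) for Pgk1, chr11:120949025-120949066 (plus) for Slc16a3 and chr1:130715823-130715908 (minus) for Pfkfb2.
Ldha: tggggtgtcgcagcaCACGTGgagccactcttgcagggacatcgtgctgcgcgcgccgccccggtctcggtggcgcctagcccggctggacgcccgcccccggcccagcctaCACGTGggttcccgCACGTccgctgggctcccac
Pgk1: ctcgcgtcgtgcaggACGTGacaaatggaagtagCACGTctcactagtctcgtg
Slc16a3: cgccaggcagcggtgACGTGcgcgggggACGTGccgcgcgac
Pfkfb2: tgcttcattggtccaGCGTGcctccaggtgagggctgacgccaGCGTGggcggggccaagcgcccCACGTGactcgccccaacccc
The Ldha stretch holds a pair of E-boxes close to the start site and an ACGTG on the other strand, written CACGT. The Pfkfb2 stretch holds an E-box too. Whether such matches bear on the direction of a gene was not tested.

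Expression is given as FPKM, fragments per length of gene and per depth of library, after each library was scaled so that its median gene matched that of the other libraries in its table. Without this step the median gene lay at log2 fold changes of -0.63, -0.66 and -0.65 with siMat2a, etomoxir and MYCi, and scaling moved the log2 fold changes by 0.66, 0.70 and 0.68 there, by -0.04 and -0.10 in the ΔΨm and Eed tables, and by 0.40 in the SAM table. Directions below are therefore relative to the median gene. The share of calls that were higher was 53.8%, 49.7% and 47.2% with siMat2a, etomoxir and MYCi, against 26.2%, 21.3% and 12% on the deposited scale. The fragments over Ensembl genes, estimated from the FPKM values, numbered 27.2M to 64.2M per library (median 39.7M). In RNA from many cells, fewer cells of a type and less RNA per cell cannot be told apart. Summed naive ESC markers (9 genes, among them Pou5f1, Nanog and Sox2) reached at least 432 FPKM in each of the 24 libraries, and fibroblast markers summed to 8.79 FPKM or less.

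For 11 members, reads were split with near-identical copies elsewhere in the genome, so their level against other genes is uncertain. Copies took 96.3 to 98.3% of the fragments of the Gapdh family (90 copies), 77.7 to 94.5% for Pgk1, 76.2 to 87.2% for Eno1 and 82.2 to 88.7% for Mpc1, but 23.9 to 44.4% for Ldhb and 2 to 8.59% for Ldha. Fragments were counted without regard to strand, and 8 members share over 5% of their exon length with another annotated gene, the most being Mpc1 (23.1%) and Pfkfb2 (17.4%). Reads of such overlapping genes cannot be told apart.

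Most members fell relative to the median gene with etomoxir, with MYCi and with siMat2a, moved in both directions in low-ΔΨm cells and in Eed-/- cells, and were not called between SAM doses. The median log2 fold change of the 35 members was -0.97 with etomoxir, -0.66 with siMat2a, -0.50 with MYCi, -0.11 at the higher SAM dose, -0.02 in low-ΔΨm cells and 0.04 in Eed-/- cells. The medians over all genes tested were 0.05, 0.04, 0.03, 0.00, -0.01 and 0.01. A total of 22 members fell in all 3 of the siMat2a, etomoxir and MYCi comparisons, and Pfkfb2 and Pdk4 rose in all 3. How many of all genes did so was not counted. On the deposited scale the siMat2a value of Pdk4 was -0.15 and that of Pfkfb2 0.18, both short of the threshold. The heatmap of log2 fold changes shows these members as rows ordered by step.

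**Figure D1:**
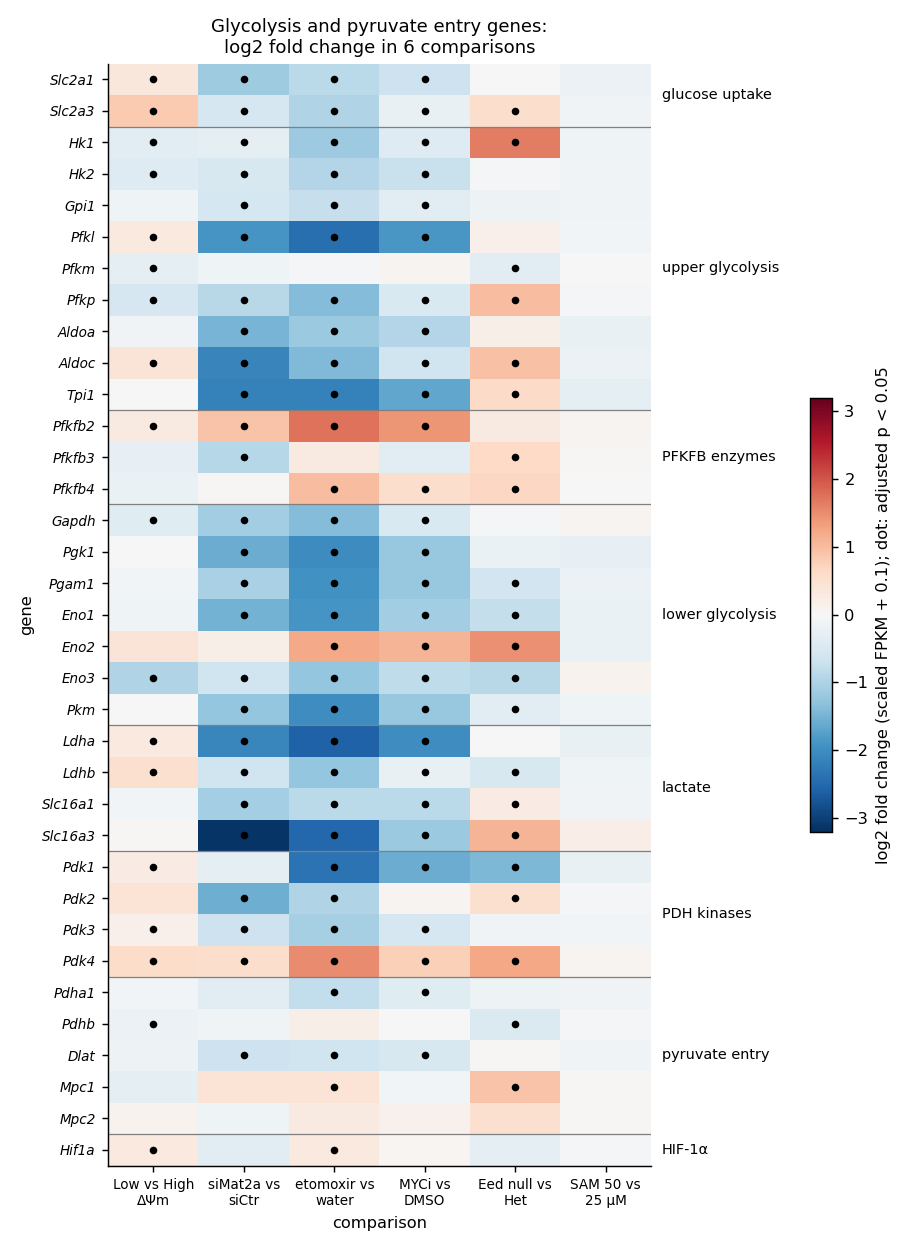
Log2 fold change of each of the 35 members (rows, ordered by step of the pathway) in each of the 6 comparisons (columns), from 2 against 2 libraries scaled to the median gene, with called values (limma, adjusted p under 0.05) marked by a dot. The siMat2a, etomoxir and MYCi columns are mostly below 0 from Slc2a1 to Slc16a3, while Pfkfb2 and Pdk4 lie above 0 in all 3.

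**Figure D2:**
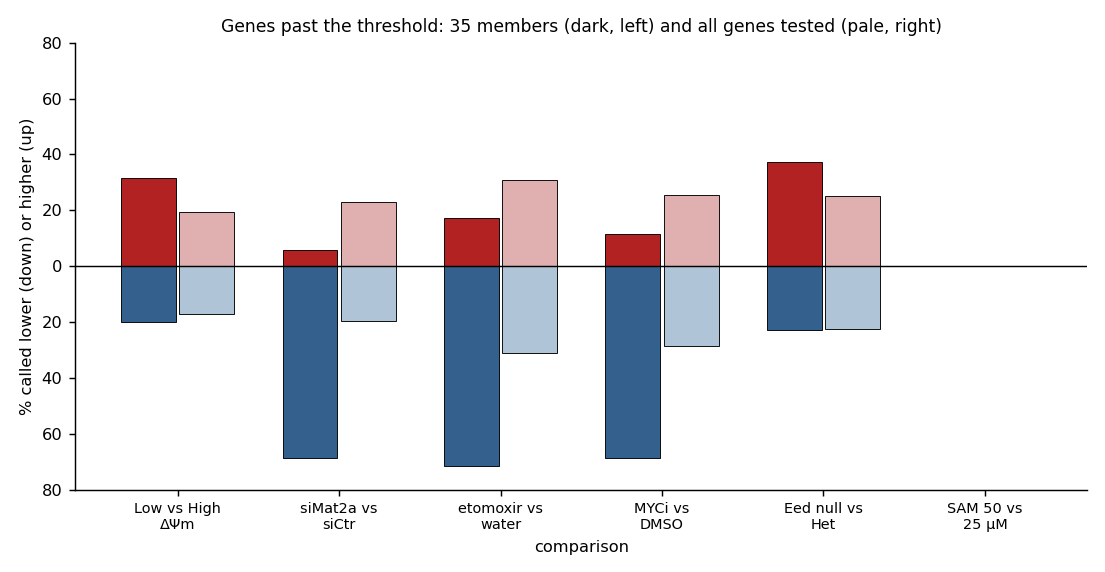
Share of the 35 members and of all genes tested that were called higher or lower in each comparison (percent, upward for higher and downward for lower, members dark and all genes pale). With etomoxir 71.4% of members and 31.2% of all genes were lower, and in low-ΔΨm cells 31.4% of members and 19.4% of all genes were higher.

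Etomoxir gave the largest set of changes. Against water, 25 members (71.4%) fell and 6 (17.1%) rose, where 31.2% of the 25421 genes tested fell and 30.9% rose. Most members are well expressed (median level 12.2 FPKM against 1.59 for all genes), and among genes at 1 FPKM or more 46.8% fell. Of the members, 17 fell and 3 rose by 2-fold or more, where 2091 of all genes tested fell and 4267 rose by that much. On the deposited scale 26 members fell, the 25 among them, where 51.3% of all genes tested fell. Values there lie lower as a whole with etomoxir, so this was no separate test of the falls. Of the 6 members that rose, only Pfkfb2 and Pdk4 passed the threshold there. By step, both glucose transporters, 8 of 9 upper glycolysis genes, 6 of 7 lower glycolysis genes and 4 of 4 genes of lactate production and export fell.

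Genes of glucose uptake and of the first steps of the pathway were lower with etomoxir. Slc2a1, which encodes the glucose transporter GLUT1, was at 56.4 and 59.2 FPKM with water and 31.5 and 32.3 FPKM with etomoxir (log2 fold change -0.86, SE 0.056, adjusted p = 0.000626). The hexokinase gene Hk2 was at 66.6 and 70.5 with water and 36.3 and 35.4 with etomoxir (log2 fold change -0.93, SE 0.059, adjusted p = 0.000602). The treated libraries lay below both control libraries for either gene. Pfkl, the liver type of phosphofructokinase, was at 12.3 and 12.4 with water and 2.1 and 2.39 with etomoxir, 5.32-fold lower (log2 fold change -2.41, SE 0.079, adjusted p = 0.000303). Tpi1, which interconverts the triose phosphates, was at 51.8 and 56.9 with water and 12.8 and 11.4 with etomoxir, 4.47-fold lower (log2 fold change -2.16, SE 0.085, adjusted p = 0.00033). The groups were far apart for Pfkl and Tpi1, and the spread within each group was small beside the gap. Pfkm, the muscle type, was at 11.9 and 12.4 with water and 12 and 11.6 with etomoxir and was not called (log2 fold change -0.044, SE 0.051, adjusted p = 0.49).

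At the end of the pathway, Ldha fell most among the 35. It encodes the lactate dehydrogenase subunit that favours lactate. Ldha was at 60.6 and 62.7 FPKM with water and 10.4 and 9.95 FPKM with etomoxir, 6.01-fold lower (log2 fold change -2.59, SE 0.053, adjusted p = 0.000278). Slc16a3, the lactate exporter MCT4, was at 4.04 and 4.25 with water and 0.597 and 0.694 with etomoxir (log2 fold change -2.51, SE 0.11, adjusted p = 0.000374). Pgk1, phosphoglycerate kinase, was at 32.8 and 36.6 with water and 8.23 and 8.91 with etomoxir (log2 fold change -2.004, SE 0.078, adjusted p = 0.000328), for what its copies left of its fragments. All 3 genes had treated libraries well below the controls. Eno2, the gamma-enolase known from neurons, went the other way from low levels, with 0.477 and 0.356 with water and 0.979 and 1.19 with etomoxir (log2 fold change 1.2, SE 0.20, adjusted p = 0.00649).

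The genes that steer pyruvate moved apart from each other. Pdk1, a kinase that switches off pyruvate dehydrogenase, was at 9.46 and 9.69 FPKM with water and 1.72 and 1.87 FPKM with etomoxir (log2 fold change -2.35, SE 0.070, adjusted p = 0.000303). Pdk4, a kinase of the same family known to rise in fasting, was at 1.65 and 1.8 with water and 5.28 and 4.84 with etomoxir (log2 fold change 1.5, SE 0.088, adjusted p = 0.000526). The treated libraries were lower than the controls for Pdk1 and higher for Pdk4. Pfkfb2, which makes and degrades the activator of phosphofructokinase, fructose 2,6-bisphosphate, was at 2.44 and 2.26 with water and 7.94 and 8.19 with etomoxir, 3.33-fold higher (log2 fold change 1.74, SE 0.069, adjusted p = 0.000337). Pfkfb4, of the same enzyme family, was at 0.729 and 0.914 with water and 1.73 and 1.68 with etomoxir (log2 fold change 0.98, SE 0.14, adjusted p = 0.00486). Both treated libraries lay above both controls in either case. Mpc1, a subunit of the mitochondrial pyruvate carrier, was at 1.13 and 1.09 with water and 1.52 and 1.58 with etomoxir (log2 fold change 0.45, SE 0.11, adjusted p = 0.0194), with a deposited-scale value of -0.29, and its call was lost without water replicate 2, etomoxir replicate 1 or etomoxir replicate 2. Hif1a was at 24.9 and 26.9 with water and 32.5 and 32.2 with etomoxir (log2 fold change 0.32, SE 0.059, adjusted p = 0.00955), with -0.47 on the deposited scale. Of the pyruvate dehydrogenase subunits, Pdha1 (-0.78) and Dlat (-0.63) fell, and Pdhb (0.18) was not called. The remaining falls ran from -0.74 (Gpi1, glucose-6-phosphate isomerase) to -1.99 (Pkm). Leaving out any 1 library kept all 25 falls. Trophectoderm markers summed to 6.24 and 5.76 FPKM with water and 19.7 and 21.7 with etomoxir. Of the 5 tested, 4 were higher and 1 lower (-3.29). Naive markers summed to 744 and 814 against 454 and 432, with 8 of 9 lower and 1 higher. Markers of the 2-cell-like state summed to 5.33 and 6.08 FPKM with water and 1.12 and 1.6 with etomoxir, with 4 of 4 tested lower. The part of these markers in the values of the members was not tested.

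**Figure D3:**
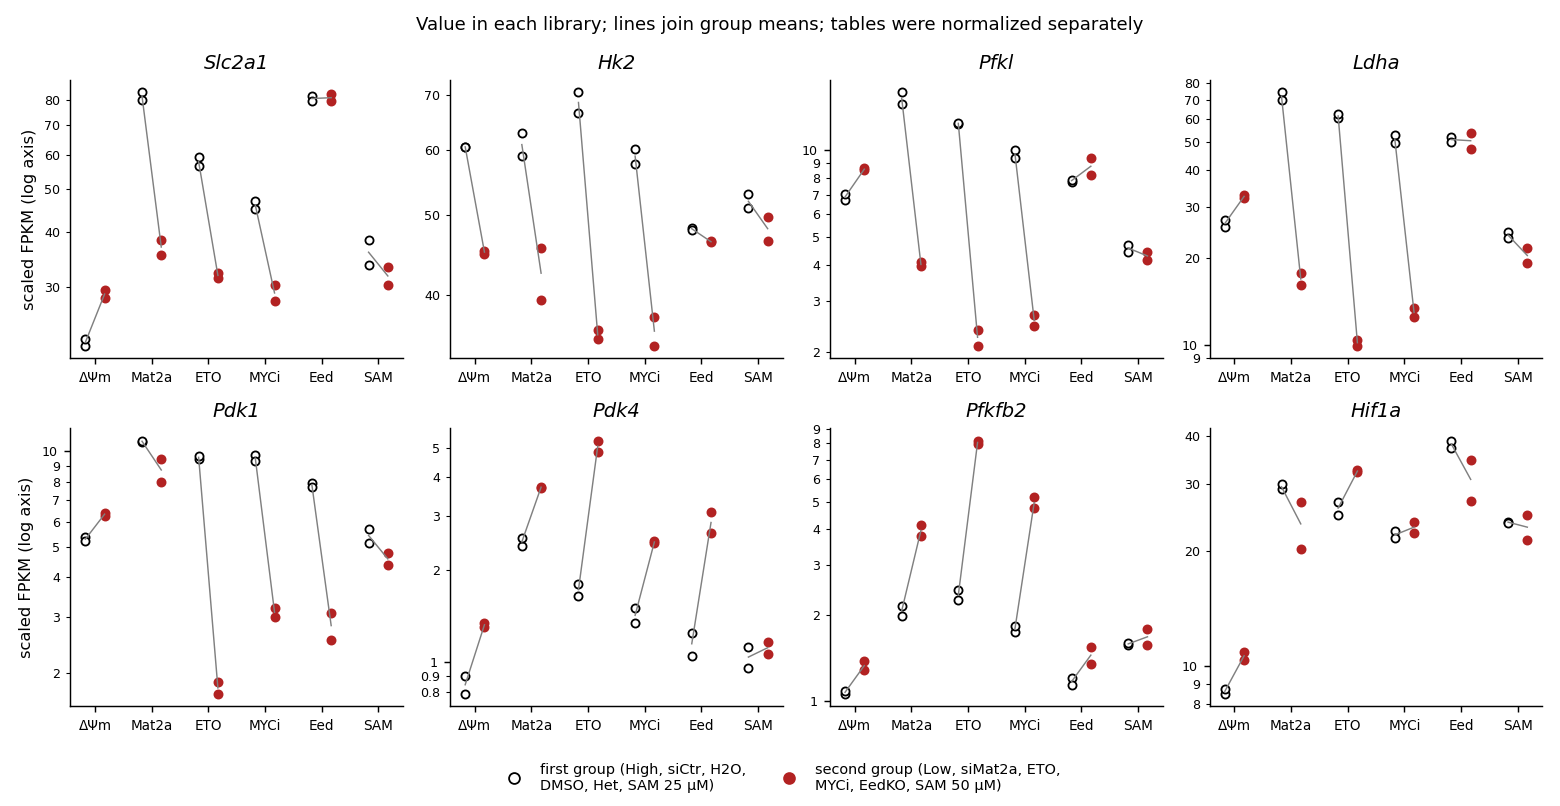
Scaled FPKM (log axis) of 8 members in all 24 libraries, with open circles for the first group and filled circles for the second group of each table and a line between group means. Ldha, Pfkl and Pdk1 drop steeply with etomoxir and MYCi while Pfkfb2 and Pdk4 rise, and Slc2a1 and Ldha are higher in low-ΔΨm cells.

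The 24 members that fell with MYCi also fell with etomoxir, and the 4 that rose also rose. How many of all genes moved alike with both agents was not counted. With MYCi 24 members (68.6%) fell and 4 (11.4%) rose against DMSO, where 28.4% of the 24335 genes tested fell and 25.4% rose. Among genes at 1 FPKM or more 44% fell. Of the members, 9 fell and 2 rose by 2-fold or more, where 713 of all genes tested fell and 2464 rose by that much. On the deposited scale 31 members fell, the 24 among them, where 57.8% of all genes tested fell, and only Pfkfb2 rose past the threshold. Values there lie lower as a whole with MYCi, so this was no separate test of the falls.

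In the upper pathway, Pfkl was at 10.02 and 9.36 FPKM with DMSO and 2.46 and 2.68 FPKM with MYCi, 3.67-fold lower (log2 fold change -1.87, SE 0.070, adjusted p = 0.00112). Tpi1 was at 44.9 and 44.7 with DMSO and 12.8 and 15.3 with MYCi (log2 fold change -1.67, SE 0.092, adjusted p = 0.00114). Hk2 was at 60.3 and 57.7 with DMSO and 34.8 and 37.6 with MYCi (log2 fold change -0.70, SE 0.058, adjusted p = 0.00167). MYCi libraries lay below both DMSO libraries for all 3 genes, and by far the most for Pfkl and Tpi1. The transporter gene Slc2a1 was at 47 and 45.2 with DMSO and 27.9 and 30.2 with MYCi (log2 fold change -0.66, SE 0.057, adjusted p = 0.00179). Ldha was at 52.9 and 49.8 with DMSO and 12.5 and 13.4 with MYCi, 3.95-fold lower (log2 fold change -1.98, SE 0.059, adjusted p = 0.00112). Pkm, which encodes pyruvate kinase, was at 85.2 and 80.2 with DMSO and 34.9 and 36 with MYCi (log2 fold change -1.22, SE 0.051, adjusted p = 0.00112). Pyruvate kinase closes the pathway and lactate dehydrogenase draws on its product, and the genes of both were lower in each treated library. Pgam1 (-1.21), Pgk1 (-1.2), Slc16a3 (-1.18) and Eno1 (-1.1) were next in size. Slc2a3 and Ldhb fell least (-0.24 and -0.24), and each call was lost without DMSO replicate 1 or MYCi replicate 1, for Slc2a3 also without MYCi replicate 2 and for Ldhb without DMSO replicate 2.

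Among the regulators of pyruvate use, Pdk1 was at 9.73 and 9.31 FPKM with DMSO and 2.996 and 3.21 FPKM with MYCi (log2 fold change -1.59, SE 0.060, adjusted p = 0.00112). Pdk4 was at 1.5 and 1.34 with DMSO and 2.48 and 2.45 with MYCi (log2 fold change 0.76, SE 0.089, adjusted p = 0.00361). Pfkfb2 was at 1.75 and 1.83 with DMSO and 5.18 and 4.75 with MYCi (log2 fold change 1.42, SE 0.074, adjusted p = 0.00113). Groups did not overlap for these 3 genes, with Pdk1 low and the other 2 high after treatment. Eno2 was at 0.23 and 0.372 with DMSO and 0.764 and 0.714 with MYCi (log2 fold change 1.09, SE 0.22, adjusted p = 0.0155). Pfkfb4 was at 0.583 and 0.688 with DMSO and 0.996 and 0.954 with MYCi (log2 fold change 0.55, SE 0.13, adjusted p = 0.026), with -0.13 on the deposited scale. Without MYCi replicate 1 the count of members that rose was 2, since Eno2 and Pfkfb4 were no longer called, and Pfkfb4 was also lost without DMSO replicate 1 or MYCi replicate 2. Hif1a was at 22.5 and 21.6 with DMSO and 22.4 and 23.8 with MYCi and was not called (log2 fold change 0.066, SE 0.051, adjusted p = 0.322). Naive markers summed to 761 and 714 FPKM with DMSO and 546 and 554 with MYCi, with 7 of 9 lower and 1 higher. The 2-cell-like markers summed to 5.59 and 5.57 FPKM with DMSO and 3.71 and 3.77 with MYCi, with 3 of 4 tested lower. The part of these markers in the values of the members was not tested.

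The effects of etomoxir and MYCi were then compared in 1 fit, as the difference of their log2 fold changes against their own controls. The effect of etomoxir lay below that of MYCi for 18 members and above it for 3, where 10.3% and 8.46% of the 23717 genes tested were called in these directions. The median difference of the members was -0.42, against -0.04 over all genes. Slc16a3 differed most (-1.34, SE 0.14, adjusted p = 0.00316), and it alone stayed past the threshold on the deposited scale. Pdk2, a pyruvate dehydrogenase kinase, fell with etomoxir (-0.97) and was at 0.098 with MYCi, a difference of -1.07, SE 0.12, adjusted p = 0.00348. Ldhb, the lactate dehydrogenase subunit that favours pyruvate, fell by 1.24 with etomoxir and by 0.24 with MYCi on the log2 scale (-1.001, SE 0.13, adjusted p = 0.00477). The members above 0 were Pdk4 (0.74, SE 0.12, adjusted p = 0.0103), Pfkfb3 (0.62, SE 0.13, adjusted p = 0.0212) and Mpc1 (0.52, SE 0.14, adjusted p = 0.0419), of which Pdk4 alone was called without each library in turn. For Slc16a1, the lactate and pyruvate transporter MCT1, the difference was 0.016 with a 95% interval of -0.18 to 0.21, and for Hk2 it was -0.23 (-0.42 to -0.040), and neither was called after adjustment. Doses, times and solvents differ between the agents. The count above 0 was 1 without water replicate 2, without either etomoxir library, without DMSO replicate 1 or without MYCi replicate 2.

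**Figure D4:**
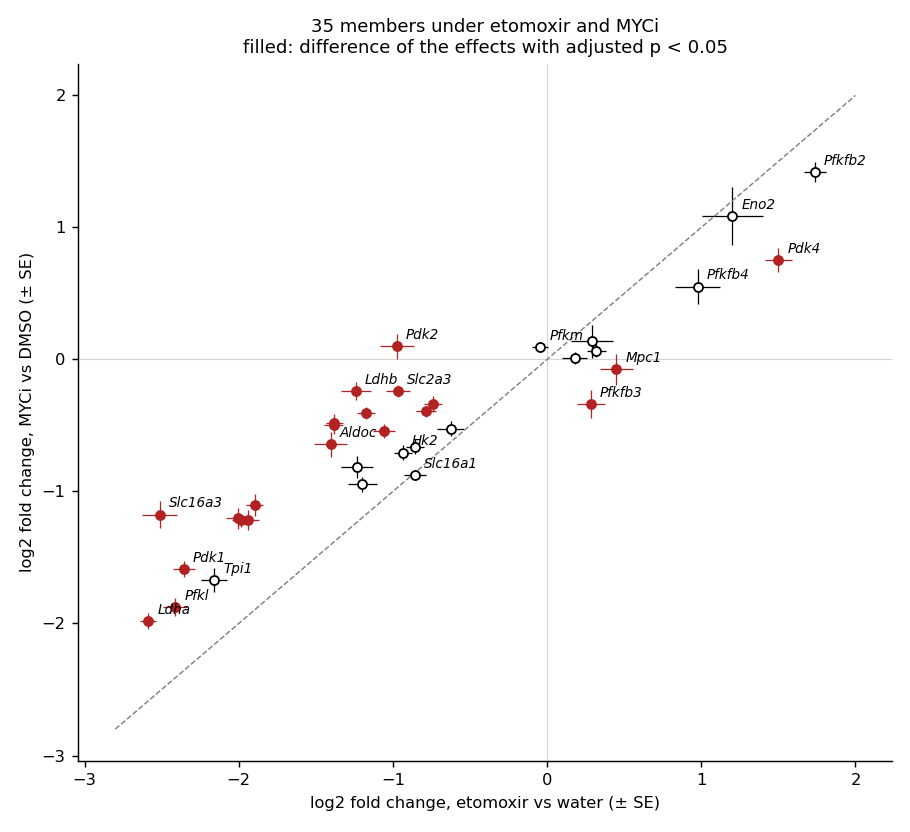
Log2 fold change of the 35 members with etomoxir (x axis) and with MYCi (y axis), each with its SE, filled where the difference between the effects was called. Most filled points lie above the dashed line of equal effects, as Ldha does with -2.59 and -1.98, and Pdk4, Pfkfb3 and Mpc1 lie below it.

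Mat2a knockdown was checked on its target first. Mat2a was at 36.7 and 35.3 FPKM with siCtr and 14.6 and 14.7 FPKM with siMat2a (log2 fold change -1.29, SE 0.071, adjusted p = 0.00121), so the labels and the level of the target go together. With siMat2a 24 members (68.6%) fell and 2 (5.71%) rose, where 19.8% of the 24938 genes tested fell and 23% rose. Among genes at 1 FPKM or more 31.7% fell. Of the members, 14 fell and 0 rose by 2-fold or more, where 749 of all genes tested fell and 3972 rose by that much. On the deposited scale 28 members fell, the 24 among them, where 36.8% of all genes tested fell. Values there lie lower as a whole with siMat2a, so this was no separate test of the falls. Neither of the 2 members that rose was called there. All 4 lactate genes, 8 of 9 upper and 6 of 7 lower glycolysis genes fell.

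The lactate exporter gene Slc16a3 had the largest change of any member in any comparison. It was at 5.35 and 4.55 FPKM with siCtr and 0.428 and 0.525 FPKM with siMat2a, 8.76-fold lower (log2 fold change -3.13, SE 0.16, adjusted p = 0.00117). Ldha was at 74.3 and 69.7 with siCtr and 17.7 and 16 with siMat2a (log2 fold change -2.09, SE 0.088, adjusted p = 0.000865). Both lactate genes were several-fold lower in either siMat2a library. Tpi1 was at 71.3 and 72 with siCtr and 17.1 and 15 with siMat2a (log2 fold change -2.15, SE 0.093, adjusted p = 0.000923). Aldoc, a low-level aldolase, was at 5.87 and 5.66 with siCtr and 1.22 and 1.3 with siMat2a (log2 fold change -2.11, SE 0.10, adjusted p = 0.0011). Pfkl was at 15.8 and 14.4 with siCtr and 4.08 and 3.95 with siMat2a (log2 fold change -1.88, SE 0.087, adjusted p = 0.00101). These upper pathway genes had knockdown libraries that lay close together and far below the controls. Slc2a1 was at 83.1 and 79.9 with siCtr and 38.4 and 35.5 with siMat2a (log2 fold change -1.14, SE 0.084, adjusted p = 0.00178). Hk2 was at 62.9 and 59 with siCtr and 45.6 and 39.5 with siMat2a (log2 fold change -0.52, SE 0.10, adjusted p = 0.016), and its call was lost without either siCtr library, with a log2 fold change of -0.50 without replicate 1 and -0.59 without replicate 2. The calls of Hk1 (-0.32) and Slc2a3 (-0.55) were lost in the same fits, and that of Eno3 (-0.64) without siCtr replicate 1 or siMat2a replicate 1. The other falls ran from -0.57 (Gpi1) to -1.59 (Pgk1), with Eno1 at -1.5 and Aldoa at -1.48.

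Pfkfb2 was high here too, at 2.15 and 1.99 FPKM with siCtr and 3.79 and 4.13 FPKM with siMat2a (log2 fold change 0.91, SE 0.11, adjusted p = 0.00492). Pdk4 was at 2.4 and 2.53 with siCtr and 3.73 and 3.71 with siMat2a (log2 fold change 0.57, SE 0.098, adjusted p = 0.0111). Groups did not overlap for either gene, but the call of Pdk4 was lost without siCtr replicate 1 or 2, which left 1 member that rose. Pdk1 was at 10.7 and 10.8 with siCtr and 9.45 and 8.02 with siMat2a and was not called (log2 fold change -0.30, SE 0.10, adjusted p = 0.0701). Hif1a was at 29 and 29.9 with siCtr and 26.8 and 20.3 with siMat2a and was not called either (log2 fold change -0.33, SE 0.15, adjusted p = 0.124). The knockdown libraries of Pdk1 and Hif1a lay below the controls but differed from each other, and without siMat2a replicate 1 both were called (-0.37 and -0.49). Among the other kinase genes, Pdk2 fell by 1.56 and Pdk3 by 0.67 on the log2 scale. Markers of the 2-cell-like state summed to 16.1 and 15.6 FPKM with siCtr and 287 and 240 with siMat2a, with 5 of 5 higher, and their part in the values of the glycolytic genes was not tested.

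Low-ΔΨm cells differed from high-ΔΨm cells in both directions. Of the members 11 (31.4%) were higher and 7 (20%) lower, where 19.4% of the 21086 genes tested were higher and 17% lower. Among genes at 1 FPKM or more 20.2% were higher and 22.7% lower, and the members' share of lower calls is near that background. None of the 18 reached 2-fold, where 1028 of all genes tested were higher and 447 lower by that much. Both glucose transporters, both lactate dehydrogenase genes and 3 of 4 PDK genes were higher, and the hexokinase genes were lower.

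Slc2a3, the glucose transporter GLUT3, had the largest difference among those higher, at 79.3 and 77.4 FPKM in high-ΔΨm cells and 139 and 141 FPKM in low-ΔΨm cells (log2 fold change 0.84, SE 0.039, adjusted p = 0.00126). Slc2a1 was at 22.1 and 22.9 in high-ΔΨm cells and 29.5 and 28.4 in low-ΔΨm cells (log2 fold change 0.36, SE 0.039, adjusted p = 0.00628). Ldhb was at 46.1 and 47.9 in high-ΔΨm cells and 67.3 and 67.9 in low-ΔΨm cells (log2 fold change 0.52, SE 0.037, adjusted p = 0.0028). Those 3 were the members that stayed higher without each library in turn. Ldha was at 25.5 and 27 in high-ΔΨm cells and 32.2 and 32.9 in low-ΔΨm cells (log2 fold change 0.31, SE 0.041, adjusted p = 0.00984). Aldoc was at 1.66 and 1.43 in high-ΔΨm cells and 2.17 and 2.04 in low-ΔΨm cells (log2 fold change 0.42, SE 0.095, adjusted p = 0.0324). Pdk4 was at 0.789 and 0.900 in high-ΔΨm cells and 1.34 and 1.3 in low-ΔΨm cells (log2 fold change 0.59, SE 0.093, adjusted p = 0.0142). Groups did not overlap for these genes, but their calls were lost without Low replicate 1 or 2, for Aldoc also without High replicate 2. Pdk1 was at 5.35 and 5.21 in high-ΔΨm cells and 6.27 and 6.4 in low-ΔΨm cells (log2 fold change 0.26, SE 0.039, adjusted p = 0.0128), and its call was lost without High replicate 2 or either low-ΔΨm library, on the deposited scale and with scaling to the ERCC spike-ins (log2 fold change 0.35, SE 0.24, adjusted p = 0.402 by limma). Hif1a was at 8.49 and 8.75 in high-ΔΨm cells and 10.4 and 10.9 in low-ΔΨm cells (log2 fold change 0.30, SE 0.042, adjusted p = 0.0106), and its call was lost without Low replicate 2.

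Eno3, the beta-enolase known from muscle, was lowest against its control, at 3.05 and 3.1 FPKM in high-ΔΨm cells and 1.47 and 1.59 FPKM in low-ΔΨm cells (log2 fold change -0.96, SE 0.064, adjusted p = 0.00244). Pfkp, the platelet type of phosphofructokinase, was at 7.97 and 7.74 in high-ΔΨm cells and 5.34 and 5.46 in low-ΔΨm cells (log2 fold change -0.53, SE 0.039, adjusted p = 0.00287). Hk2 was at 60.6 and 60.5 in high-ΔΨm cells and 44.9 and 45.3 in low-ΔΨm cells (log2 fold change -0.42, SE 0.032, adjusted p = 0.00303). The low-ΔΨm libraries agreed closely with each other for these genes and lay below the high-ΔΨm libraries. Gapdh was at 14.9 and 14.6 in high-ΔΨm cells and 11.4 and 10.9 in low-ΔΨm cells (log2 fold change -0.39, SE 0.038, adjusted p = 0.00511), and its call was lost when its near-identical copies were added. Hk1 was at 17.1 and 18.4 in high-ΔΨm cells and 13.8 and 13.8 in low-ΔΨm cells (log2 fold change -0.36, SE 0.048, adjusted p = 0.00978), a call lost without Low replicate 1 or 2. The count of members higher was 7 without High replicate 2, 4 without Low replicate 1 and 3 without Low replicate 2, and the count lower was 4 without either low-ΔΨm library. On the deposited scale 4 members were higher and 2 lower, and after scaling to the ERCC spike-ins 2 (Slc2a3 and Pdk4) and 1 (Eno3). The 2-cell-like markers summed to 0.803 and 0.921 FPKM in high-ΔΨm cells and 110.0 and 107 in low-ΔΨm cells, and their part in these values was not tested.

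Set side by side, 7 members (Slc2a1, Slc2a3, Pfkl, Aldoc, Ldha, Ldhb and Pdk3) were higher in low-ΔΨm cells and lower with siMat2a, etomoxir and MYCi. Of these 7, the low-ΔΨm call held without each library in turn for Slc2a1, Slc2a3 and Ldhb, and with ERCC scaling for Slc2a3 alone. Pfkl lost it without Low replicate 1 or 2, and Pdk3 without any 1 of the 4 libraries, on the deposited scale, without the filter and with the replicate block. A further 5 (Hk1, Hk2, Pfkp, Gapdh and Eno3) were lower in all 4 comparisons. Eno3 was also lower in Eed-/- cells and Pdk4 was higher in all 5 comparisons other than SAM, within the limits given above for their calls. How many of all genes showed these patterns was not counted. The spontaneous and the induced qESCs were not compared in 1 fit.

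Loss of Eed was visible in the target. Eed was at 12.3 and 11.8 FPKM in Eed fl/- cells and 2.84 and 2.46 FPKM in Eed-/- cells (log2 fold change -2.14, SE 0.094, adjusted p = 0.000582). In Eed-/- cells 13 members (37.1%) were higher and 8 (22.9%) lower, where 25.3% of the 27015 genes tested were higher and 22.5% lower. Among genes at 1 FPKM or more 23.2% were higher and 32.2% lower, so the members' share of lower calls is at or under the background. By 2-fold or more, 4 members were higher and 1 lower, where 3598 of all genes tested were higher and 1161 lower.

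Members with low levels in Eed fl/- cells led the list of higher genes. Hk1, the hexokinase of most adult tissues, was at 2.73 and 2.83 FPKM in Eed fl/- cells and 8.77 and 8.99 FPKM in Eed-/- cells, 3.12-fold higher (log2 fold change 1.64, SE 0.070, adjusted p = 0.000563). Hk2, the main hexokinase here, was at 48.3 and 48 in Eed fl/- cells and 46.4 and 46.5 in Eed-/- cells and was not called (log2 fold change -0.052, SE 0.056, adjusted p = 0.484). Pfkp was at 3.86 and 3.5 in Eed fl/- cells and 7.38 and 7.45 in Eed-/- cells (log2 fold change 0.99, SE 0.080, adjusted p = 0.00145). The null libraries lay above the heterozygous ones for Hk1 and Pfkp. Eno2 was at 0.296 and 0.299 in Eed fl/- cells and 1.04 and 0.941 in Eed-/- cells (log2 fold change 1.45, SE 0.14, adjusted p = 0.00221). Pdk4 was at 1.05 and 1.25 in Eed fl/- cells and 3.08 and 2.63 in Eed-/- cells (log2 fold change 1.24, SE 0.14, adjusted p = 0.0032). Slc16a3 was at 2.76 and 2.05 in Eed fl/- cells and 4.57 and 5.77 in Eed-/- cells (log2 fold change 1.08, SE 0.19, adjusted p = 0.0106). Groups did not overlap for those 3 genes, and the null libraries lay above the heterozygous ones in each case. Next in size were Aldoc (0.94), Mpc1 (0.92) and Pfkfb4 (0.67), the last called in only 1 of the 4 fits that left out a library.

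Pdk1 was the member with the largest drop in Eed-/- cells, at 7.92 and 7.71 FPKM in Eed fl/- cells and 3.09 and 2.55 FPKM in Eed-/- cells (log2 fold change -1.45, SE 0.11, adjusted p = 0.00133). Eno3 was at 8.06 and 8.75 in Eed fl/- cells and 4.1 and 4.89 in Eed-/- cells (log2 fold change -0.89, SE 0.11, adjusted p = 0.00408). Eno1, the main enolase of ESCs, was at 60.7 and 57.6 in Eed fl/- cells and 35.6 and 33.6 in Eed-/- cells (log2 fold change -0.77, SE 0.067, adjusted p = 0.0017). The null libraries were below the heterozygous libraries for all 3 enzymes. Pgam1, phosphoglycerate mutase, was at 116 and 109.9 in Eed fl/- cells and 73.7 and 74.5 in Eed-/- cells (log2 fold change -0.61, SE 0.066, adjusted p = 0.00297). Ldhb was at 13 and 13.5 in Eed fl/- cells and 8.91 and 9.79 in Eed-/- cells (log2 fold change -0.50, SE 0.074, adjusted p = 0.0066), a call lost without Het replicate 2. The null libraries were low for both, with the smaller gap for Ldhb. Slc2a1 was at 81.4 and 79.5 in Eed fl/- cells and 82.3 and 79.3 in Eed-/- cells (log2 fold change 0.0062, SE 0.063, adjusted p = 0.946). Ldha was at 52 and 50.1 in Eed fl/- cells and 47.4 and 53.8 in Eed-/- cells (log2 fold change -0.016, SE 0.084, adjusted p = 0.895). Hif1a was at 38.9 and 37.2 in Eed fl/- cells and 34.6 and 27 in Eed-/- cells (log2 fold change -0.31, SE 0.13, adjusted p = 0.11). Neither Slc2a1 nor Ldha nor Hif1a was called, and the groups overlapped for the first pair of these genes. The counts were 8 higher and 4 lower without Het replicate 2, and 13 and 4 on the deposited scale, where Ldhb, Pdhb, Pfkm and Pkm were not called. Trophectoderm markers summed to 19.5 and 20.2 FPKM in Eed fl/- cells and 73.8 and 91.6 in Eed-/- cells, with 6 of 6 higher. The 2-cell-like markers summed to 84.9 and 81.1 FPKM in Eed fl/- cells and 213 and 193 in Eed-/- cells, with 5 of 5 higher. The fibroblast markers summed to 7.88 and 8.79 against 4.15 and 4.21, though of the 5 tested 3 were higher and 2 lower (-3.15 to 2.25). The part of these markers in the values of the members was not tested.

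Between SAM doses, limma called 0 members higher and 0 lower, and 0% of the 23911 genes tested in either direction. At an unadjusted p under 0.05 the counts were 0 higher and 3 lower, where 4.01% of all genes tested were higher and 2.05% lower at that level. Tpi1 had the largest difference, at 22.4 and 20.2 FPKM at 25 µM SAM and 18.2 and 16 FPKM at 50 µM SAM (log2 fold change -0.32, SE 0.098, adjusted p = 0.742). Slc2a1 was at 38.4 and 33.6 at 25 µM SAM and 33.3 and 30.3 at 50 µM SAM (log2 fold change -0.18, SE 0.10, adjusted p = 0.742). Hk2 was at 53 and 51 at 25 µM SAM and 49.8 and 46.5 at 50 µM SAM (log2 fold change -0.11, SE 0.082, adjusted p = 0.745). Both libraries at the higher dose lay below both at the lower dose for these genes, though none was called. Ldha was at 24.5 and 23.3 at 25 µM SAM and 21.5 and 19.2 at 50 µM SAM (log2 fold change -0.23, SE 0.086, adjusted p = 0.742). Pdk1 was at 5.71 and 5.15 at 25 µM SAM and 4.77 and 4.39 at 50 µM SAM (log2 fold change -0.24, SE 0.094, adjusted p = 0.742). Hif1a was at 23.9 and 23.7 at 25 µM SAM and 24.9 and 21.3 at 50 µM SAM (log2 fold change -0.048, SE 0.095, adjusted p = 0.882). The libraries were lower at 50 µM for Ldha and Pdk1 too, and overlapped for Hif1a. A missed threshold with 2 libraries a dose does not show that the doses act alike.

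The share of each isozyme in its family's summed FPKM needs no scaling between libraries, so it was read as a description, without a test, since 2 against 2 libraries cannot give a permutation p below 0.333. Among the phosphofructokinase genes, the share of Pfkl was 32 and 32.5% with water and 10.9 and 12.4% with etomoxir. It was 31.3 and 29.5% with DMSO and 10.9 and 12.1% with MYCi, and 39 and 37.7% with siCtr and 18.6 and 18.4% with siMat2a. Pfkm took up the difference with etomoxir, with 31 and 32.5% with water and 62.1 and 60.2% with etomoxir. In low-ΔΨm cells the change ran the other way, with a Pfkl share of 29.6 and 30.1% in high-ΔΨm cells and 41.3 and 41.5% in low-ΔΨm cells. In Eed-/- cells the Pfkp share was the one that grew, with 13.9 and 12.7% in Eed fl/- cells and 26.2 and 25.3% in Eed-/- cells.

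Ldha held 61.6 and 61.2% with water and 36.9 and 39.9% with etomoxir, and the rest was Ldhb. The shares were 56.2 and 55.7% with DMSO and 27.7 and 27.1% with MYCi, and 49.4 and 48.3% with siCtr and 26.7 and 25% with siMat2a. Ldhb was thus the larger part after each of these treatments. Which gene was larger in the controls depended on the copies, which took more of the Ldhb fragments. With copies summed, the Ldha share was 54.1 and 53.2% with water, 47.9 and 48% with DMSO and 41.7 and 41.1% with siCtr, against 30.3 and 33.6% with etomoxir, 22.7 and 22.2% with MYCi and 21.5 and 20% with siMat2a, so the drop in the Ldha share did not depend on them. In the Eed table Ldha held more than Ldhb in both genotypes, also with copies summed. Its share was 80 and 78.8% in Eed fl/- cells and 84.2 and 84.6% in Eed-/- cells. Those lines were derived in another medium than that of the other ESCs, so shares were not compared between tables.

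Among the kinases of pyruvate dehydrogenase, the share of Pdk4 was 6.4 and 6.52% with water and 36.5 and 34.7% with etomoxir. The share of Pdk1 was 36.7 and 35.1% with water and 11.9 and 13.4% with etomoxir. Pdk3 held the largest share in all 4 of these libraries. In the Eed table the Pdk4 share was 4.92 and 5.66% in Eed fl/- cells and 15.7 and 15.8% in Eed-/- cells and the Pdk1 share 37.1 and 35% in Eed fl/- cells and 15.8 and 15.4% in Eed-/- cells. Hk1 had a share of 5.34 and 5.56% in Eed fl/- cells and 15.9 and 16.2% in Eed-/- cells among hexokinases, and Hk2 held the rest. The Pfkfb2 share was 43.4 and 40.6% with siCtr and 68.3 and 68.5% with siMat2a, with Pfkfb3 the isozyme that gave way (42.6 and 43.6% with siCtr and 19.6 and 17.7% with siMat2a). Shares at the SAM doses mostly overlapped.

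**Figure D5:**
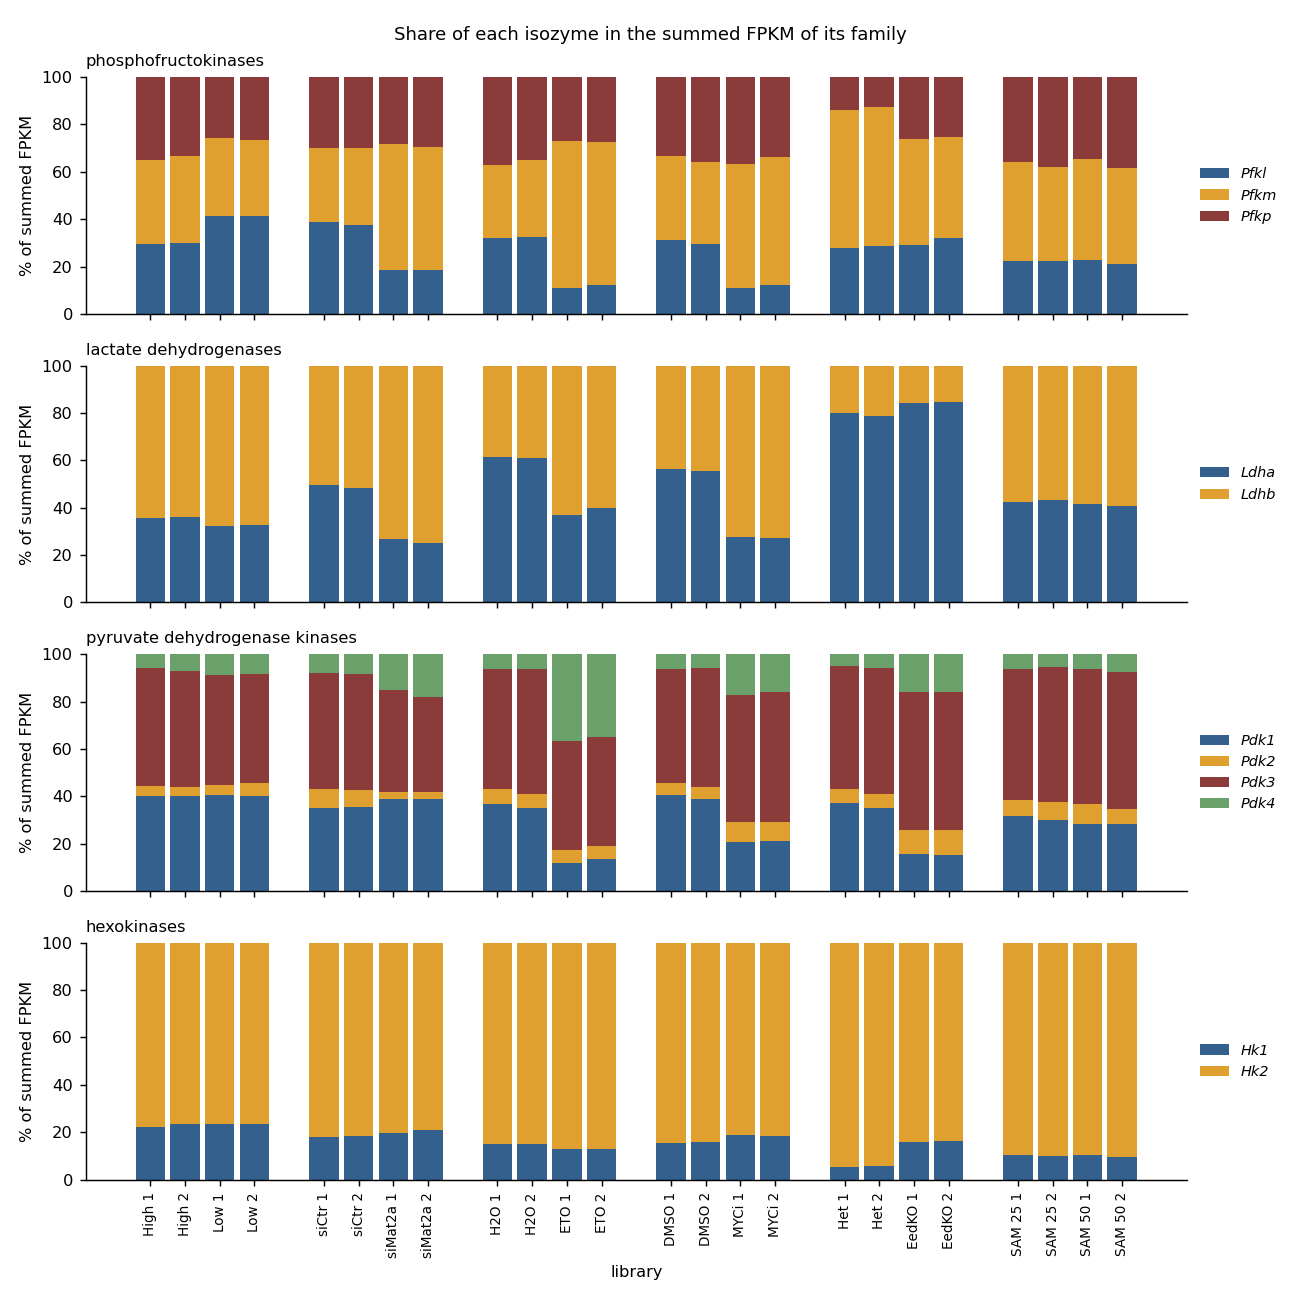
Share of each isozyme in the summed FPKM of its family (percent, stacked) in each of the 24 libraries, for phosphofructokinases, lactate dehydrogenases, pyruvate dehydrogenase kinases and hexokinases. The Pfkl and Ldha shares shrink with siMat2a, etomoxir and MYCi, and the Pdk4 share grows to 36.5 and 34.7% with etomoxir.

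Other genes of the pathway were taken from lists by function and set beside the members. Of all genes tested, 30.9% were higher and 31.2% lower with etomoxir, 25.4 and 28.4% with MYCi, and 23 and 19.8% with siMat2a. The shares were 19.4 and 17% in low-ΔΨm cells and 25.3 and 22.5% in Eed-/- cells. Counts in the lists below are small, were not tested against these shares and in part lie near them. Gluconeogenesis opposes glycolysis, and its fructose bisphosphatases rose: with etomoxir 3 of 4 measured genes were higher and 1 lower, led by Fbp2 (2.8) and Fbp1 (1.3). Fbp2 was also higher with siMat2a (3.42), with MYCi (1.79), in low-ΔΨm cells (1.14) and in Eed-/- cells (3.001), and it was higher on the deposited scale in all 5. The gene with the lower value was Pck2, the mitochondrial carboxykinase, at -0.87 with etomoxir, -1.2 with siMat2a, -0.38 with MYCi and -0.73 in low-ΔΨm cells. With siMat2a 2 of 4 were higher and 1 lower, as with MYCi and in low-ΔΨm cells, and in Eed-/- cells 3 were higher. On the deposited scale 2 were higher with etomoxir, and 1 was higher and 2 lower with MYCi.

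The pentose phosphate pathway draws on glucose 6-phosphate. Of its 7 genes, 5 fell and 1 rose with siMat2a, 4 fell and 1 rose with MYCi, 3 fell and 3 rose with etomoxir, 3 were lower in low-ΔΨm cells, and 3 were higher and 2 lower in Eed-/- cells. Tkt, transketolase, fell by 0.97 with siMat2a, by 1.003 with etomoxir and by 0.75 with MYCi on the log2 scale. Taldo1, transaldolase, fell by 0.94 with etomoxir and by 0.83 with MYCi, and G6pdx, the entry enzyme, fell by 0.89 with siMat2a. The 3 genes that rose with etomoxir lay below 0 on the deposited scale, where none of them was called. On that scale all 7 genes were lower with MYCi, Pgd among them, which rose after scaling to the median gene, 5 were lower and 0 higher with siMat2a, 0 were called in low-ΔΨm cells, and 2 were higher and 1 lower in Eed-/- cells.

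Of the partners of pyruvate dehydrogenase (7 genes), 6 fell with MYCi, led by the phosphatase genes Pdp1 (-0.55) and Pdp2 (-0.47). With etomoxir 4 fell and 1 rose, with Pdpr (-0.69) lower and Pdha2 (0.78) higher. With siMat2a 2 rose, the testis-type subunit Pdha2 (2.72) and pyruvate carboxylase Pcx (1.46). In Eed-/- cells 3 were higher and 1 lower, led by Pdha2 (2.08) and Pdp2 (1.31), and in low-ΔΨm cells 2 were higher and 2 lower, with Pdp1 at 0.50 and Pdp2 at -0.28. On the deposited scale 6 were lower and 0 higher with etomoxir, 1 was higher (Pdha2) and 2 lower with siMat2a, 2 were higher and 0 lower in Eed-/- cells, 1 was higher and 0 lower in low-ΔΨm cells, and with MYCi 6 were lower there too.

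Isozymes typical of other tissues (19 genes, 11 to 14 above the filter) were called in both directions. With etomoxir 5 rose and 7 fell, led by Slc16a8 (1.65) and Hkdc1 (1.3). With MYCi 3 rose and 4 fell, led by Gapdhs (0.88) and Pgam2 (0.87), neither called on the deposited scale. With siMat2a 1 rose and 5 fell, with Pgam2 at 1.03 and Ldhc at -1.01. In low-ΔΨm cells Pgam2 (0.72) and Slc2a8 (0.71) were higher, and in Eed-/- cells 3 were higher, led by Hkdc1 (1.92) and Pgam2 (1.35). Hkdc1 lay under 0.1 FPKM in every library of the ΔΨm, siMat2a and SAM tables. The deposited scale gave 3 higher and 8 lower with etomoxir, 0 and 7 with MYCi, 0 and 8 with siMat2a and 2 and 0 in Eed-/- cells.

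Hif1a itself moved little, and its partners and known targets outside glycolysis moved in different directions. Of 7 partners and regulators, Egln3, a prolyl hydroxylase that marks HIF subunits for degradation and is itself a known target, fell by 2.47 with etomoxir, by 1.83 with MYCi and by 0.94 in low-ΔΨm cells on the log2 scale, and was higher in Eed-/- cells (2.21). In all, 4 fell and 1 rose with etomoxir, 5 fell and 1 rose with MYCi, 2 fell with siMat2a, 4 were lower and 1 higher in low-ΔΨm cells, and 4 were higher and 1 lower in Eed-/- cells. The second in size was Epas1 with etomoxir (0.91) and MYCi (0.91), neither called on the deposited scale, Vhl in low-ΔΨm cells (-0.33) and Egln1 in Eed-/- cells (1.42). With siMat2a the pair was Egln1 (-0.78) and Arnt (-0.38). Deposited values gave 0 higher and 6 lower with etomoxir and with MYCi, 0 and 3 with siMat2a, 0 and 1 in low-ΔΨm cells and 4 and 0 in Eed-/- cells.

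Of 13 HIF targets outside glycolysis, 9 were higher and 1 lower in Eed-/- cells, led by Adm (3.03) and Ndrg1 (2.69). With etomoxir 7 rose and 4 fell, led by Ndrg1 (2.85) and Adm (2.12), where 3 rose and 5 fell on the deposited scale. Adm lay under 0.1 FPKM in every library of the MYCi and SAM tables. With MYCi 5 of 11 rose and 3 fell (2 and 6 on the deposited scale), with Bnip3, a mitophagy receptor, at -1.62 and Ndrg1 at 1.39. With siMat2a 8 of 12 fell and 3 rose, led by Bnip3 (-3.29) and the collagen prolyl hydroxylase P4ha2 (3.06). In low-ΔΨm cells 5 of 11 were higher and 1 lower, led by P4ha2 (2.5) and Ddit4, an inhibitor of mTORC1 signalling (1.91). Ndrg1 and Bnip3 thus had opposite signs with MYCi.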

How the data were processed

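Total RNA of 24 libraries (12 groups of 2, described in the study's methods as independent biological replicates) was depleted of ribosomal RNA and sequenced with ERCC spike-ins. Per the labels and methods, the authors trimmed adapters (Trim Galore, cutadapt), mapped the reads to mm10 with TopHat2 2.1.1, removed duplicates with SAMtools 1.9 and counted fragments with featureCounts without strand, splitting a fragment among its places and overlapping features (Ensembl v99, NONCODE, HOMER 4.10 repeats), tool versions being from the submitters' processing notes. The deposited values are FPKM computed by the authors from those counts, 1 table per experiment. The study's own test needs counts and was not run.

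In each table, genes at 0.1 FPKM or more in at least 2 libraries were kept, libraries were scaled to the median gene by median-of-ratios factors, and log2(FPKM + 0.1) was tested with limma 3.58.1 (R 4.3.3, trend) over 4 libraries. P-values were adjusted by Benjamini-Hochberg over all genes of a table, and genes at an adjusted p under 0.05 were called "higher" or "lower", "rose" or "fell". Fold changes are on the log2(FPKM + 0.1) scale, which understates the change of low genes. P-values measure the spread between these libraries. Etomoxir and MYCi were compared in 1 fit of their 8 libraries. The procedure was tested on data simulated from each table with 200 changed genes. In the order low ΔΨm, siMat2a, etomoxir, MYCi, Eed and SAM, it recovered 99, 89, 93, 97, 94 and 93% of 2-fold changes and 74, 9, 36, 60, 35 and 35% of those by 0.5 on the log2 scale. False calls made up 11.7, 12.5, 5.84, 13.3, 13.4 and 14.1% of calls, above the 5% set. Depth was estimated from the FPKM step of 1 fragment. Copies were found with BLAST 2.17.0 (95% identity over at least 200 bases). Genes named with full statistics are, per comparison, the 5 called members with the largest fold change in each direction plus Slc2a1, Hk2, Ldha, Pdk1 and Hif1a. From other lists up to 2 called genes with the largest fold change are named. Pgk1, Pfkm and others outside this rule were chosen after their values were seen. Members and lists were chosen with earlier results of these data known. Promoter sequences are from RefSeq (GRCm38.p6). Alternatives tried were the deposited scale, ERCC scaling, a pseudocount of 1, no filter, copies summed, a replicate block and leaving out each library. ERCC scaling was possible in the ΔΨm table alone, since the other tables hold no spike-in values. Results with siMat2a, etomoxir, MYCi, Eed loss and SAM thus have no spike-in check.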

Additional observations from a re-analysis of the deposited data

Results flagged for a closer look

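For 21 members the effects of etomoxir and of MYCi, each against its own control, differed by a test of the difference itself (limma, adjusted over 23717 genes). The values are log2 fold change with etomoxir minus log2 fold change with MYCi. The members of uptake and upper glycolysis were Slc2a3 at -0.73 (adjusted p = 0.0028), Hk1 at -0.77 (adjusted p = 0.00183), Gpi1 at -0.40 (adjusted p = 0.0227), Pfkl at -0.54 (adjusted p = 0.0193), Pfkp at -0.90 (adjusted p = 0.00241) and Aldoc at -0.76 (adjusted p = 0.0172). In lower glycolysis they were Gapdh at -0.89 (adjusted p = 0.00257), Pgk1 at -0.80 (adjusted p = 0.00786), Pgam1 at -0.73 (adjusted p = 0.00744), Eno1 at -0.79 (adjusted p = 0.00591) and Pkm at -0.77 (adjusted p = 0.00192). In lactate production and export they were Ldha at -0.61 (adjusted p = 0.00494), Ldhb at -1.001 (adjusted p = 0.00477) and Slc16a3 at -1.34 (adjusted p = 0.00316). Among regulators and pyruvate entry they were Pdk1 at -0.77 (adjusted p = 0.0036), Pdk2 at -1.07 (adjusted p = 0.00348), Pdk3 at -0.51 (adjusted p = 0.0142), Pdha1 at -0.39 (adjusted p = 0.0155), Pdk4 at 0.74 (adjusted p = 0.0103), Pfkfb3 at 0.62 (adjusted p = 0.0212) and Mpc1 at 0.52 (adjusted p = 0.0419). On the deposited scale only Slc16a3 stayed past the threshold. The agents differed in dose, time and solvent, which cannot be told apart from the agent.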

How the results depend on the processing

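On the deposited FPKM scale, without scaling to the median gene, the members called were 4 higher and 2 lower in low-ΔΨm cells, 0 higher with siMat2a by limma (3 at an unadjusted p under 0.05 on the main scale), 2 higher with etomoxir, 1 higher with MYCi and 4 lower in Eed-/- cells, and the etomoxir effect lay above that of MYCi for 0 and below it for 1. Members called on either scale whose values changed sign there were Pdk4 with siMat2a (-0.15), Mpc1 (-0.29) and Hif1a (-0.47) with etomoxir, and with MYCi Pfkm (-0.67), Pfkfb4 (-0.13), Pdk2 (-0.61), Pdhb (-0.75), Mpc2 (-0.52) and Hif1a (-0.70). A further 3 each in the ΔΨm, siMat2a, etomoxir and Eed tables and 9 in the SAM table changed sign and were called on neither scale. Scaling to ERCC left 2 members higher and 1 lower in low-ΔΨm cells. Leaving out 1 library at a time gave, for higher and lower members, 3 to 9 and 4 to 6 in low-ΔΨm cells, 1 to 2 and 20 to 26 with siMat2a, 5 to 6 and 25 with etomoxir, 2 to 4 and 22 to 23 with MYCi and 8 to 15 and 4 to 10 in Eed-/- cells, and for the etomoxir effect 1 to 2 above and 14 to 20 below that of MYCi. In these fits the remaining library of a group is assumed to vary like the other groups. A pseudocount of 1, no filter and copies summed kept every count within 1.5 times. Deviations of same-numbered libraries correlated over genes at r = -0.09 to 0.065 in 5 tables and at 0.24 in the SAM table, and with 2 libraries a group the numbers were not taken as pairs. With the replicate block the counts of higher and lower members were 9 and 6, 2 and 22, 6 and 25, 3 and 22, 13 and 9, and 0 and 0 by limma (SAM), in the order low ΔΨm, siMat2a, etomoxir, MYCi, Eed and SAM. With 2 libraries a group, small differences and the members with few fragments, such as Eno2 (33 to 452) and Mpc1 (42 to 203), are the least certain.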
